A study of Macaca mulatta with 64 samples.

Results

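The solute carrier genes of the rhesus macaque brain were described from the start positions of their capped RNAs. A gene was a member where its Ensembl macaque symbol began with SLC followed by a digit. SLC1A2, SLC1A3 and SLC24A2 were left out of the set. This gave 199 members with 1674 start positions, out of 13269 genes with 160389 start positions. The members fell into 46 numbered SLC families. The libraries were made by CAGE-seq, which reads the 5′ ends of capped, polyadenylated RNA. They came from frozen postmortem tissue of 8 brain areas of colony-raised macaques. The areas were the cerebellar cortex (CB), the hippocampal areas CA1 and dentate gyrus (DG), and the prefrontal (PFC), posterior cingulate (PCC), temporal (TC), parietal (PC) and occipital (OC) cortex. Each area had 8 libraries, 1 for each sex at the ages of 1, 4, 10 and 20 yr, so 64 in all. The study describes a library as made from an age- and sex-matched pair of animals (stated for its RNA-seq libraries), with all areas taken from each specimen. No treatment or genotype was compared. The libraries of one age and sex are called an animal group below.

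Solute carriers are membrane proteins that move ions, sugars, amino acids, transmitters, nucleotides and metals across the plasma membrane and the membranes of organelles. Most are driven by an existing gradient of sodium, protons or another solute rather than by ATP. In brain tissue they clear transmitters from the synapse, load them into vesicles, bring glucose across the blood-brain barrier, set the chloride and pH of neurons, and exchange metabolites between mitochondria and cytosol. The symbol rule also took in SLC4A1AP, an adaptor protein named after a carrier that is not itself a carrier.

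A level below is the sum of a gene's start positions in a library, as TPM, the tags of the gene scaled to a fixed library total, with 1 tag per 5′ end and no correction for gene length. A position that a library does not list counts as 0. Genes used in every cell were also at 0 in some libraries: ACTB was listed in 8 libraries and POLR2A in 1 of 64, while GAPDH was listed in all 64. A value of 0 therefore says only that a gene was not listed. The number of genes listed in a library was between 545 and 8143. The smallest listed value of a library was between 1.00 and 1.32 TPM. CA1 libraries listed between 3805 and 8143 genes, DG libraries between 1238 and 3898, and CB libraries between 545 and 3615.

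The carrier genes were thinly listed. A member was listed in a median of 4 libraries, against 6 for all genes. Of the 199 members, 1 was listed in all 64 libraries, 13 were listed in at least 32, and 35 were listed in a single library. Over all 13269 genes these counts were 54, 1847 and 2188. For 113 members (56.8%), more than 50% of the TPM came from 1 library, against 50.1% of all genes. The number of members listed per library had a median of 63.0 in CA1, 19 in DG, 17 in CB and between 10.5 and 29.5 in the neocortical areas. In the plot of members listed against genes listed, the CA1 libraries lay at the upper right.

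**Figure D1:**
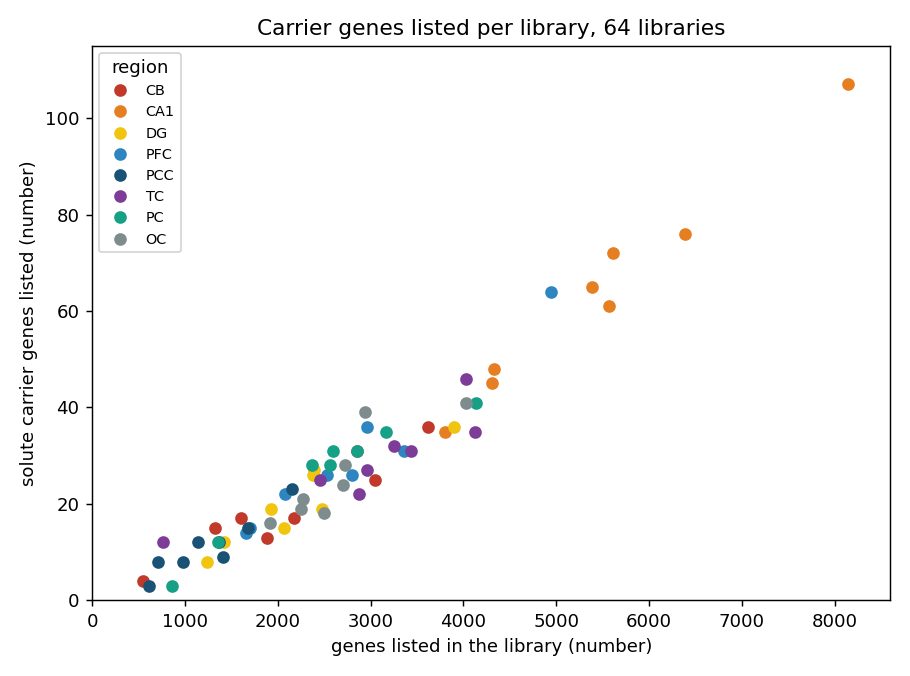
Number of solute carrier genes listed (vertical axis) against the number of all genes listed (horizontal axis); each point is 1 of 64 libraries, coloured by area. CA1 libraries listed between 35 and 107 carrier genes and the other areas between 3 and 64.

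The members held 0.970% of the listed TPM on average (SD 0.264, n = 64 libraries), with a range between 0.513% and 1.92%. SLC39A4 alone held 46.9% of the members' TPM and SLC22A17 held 15.5%. Without SLC39A4 the members' share averaged 0.509% (SD 0.226, n = 64).

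SLC39A4, a zinc importer (ZIP4) best known from the intestine, was the name of a gene model listed in every library. Its lowest, median and highest TPM were 1506, 2940 and 5414 in CA1, and 440, 2427 and 3590 in DG. The same values were 989, 1761 and 2188 in CB and 2226, 4155 and 6830 in OC. Its medians were lowest in PCC at 1182 and in PFC at 1474, and the ranges of the areas overlapped except for CB and OC, where every OC library was above every CB library. The gene lay on the unplaced scaffold 1099214741349 of the MMUL 1.0 assembly, positions 8122 to 12424 on the plus strand. Its main start position, at 11911, lay 3789 nt inside a gene of 4303 nt and held 82.8% of its TPM, and no tag lay within 500 nt of the annotated start. Whether this gene model is right in that assembly was not tested, so the values are those of tags assigned to it.

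SLC22A17, the brain-type organic cation carrier and a receptor for lipocalin-2, was the next highest, with a mean of 843 TPM in 64 libraries and 60 libraries listed. Its lowest, median and highest TPM were 0, 1271 and 3289 in CB, 113, 1436 and 3462 in PCC, and 0, 291 and 862 in OC. The areas overlapped. Of its tags, 91.0% lay within 500 nt of the annotated start on chromosome 7 (86186083 to 86192611, minus strand).

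**Figure D2:**
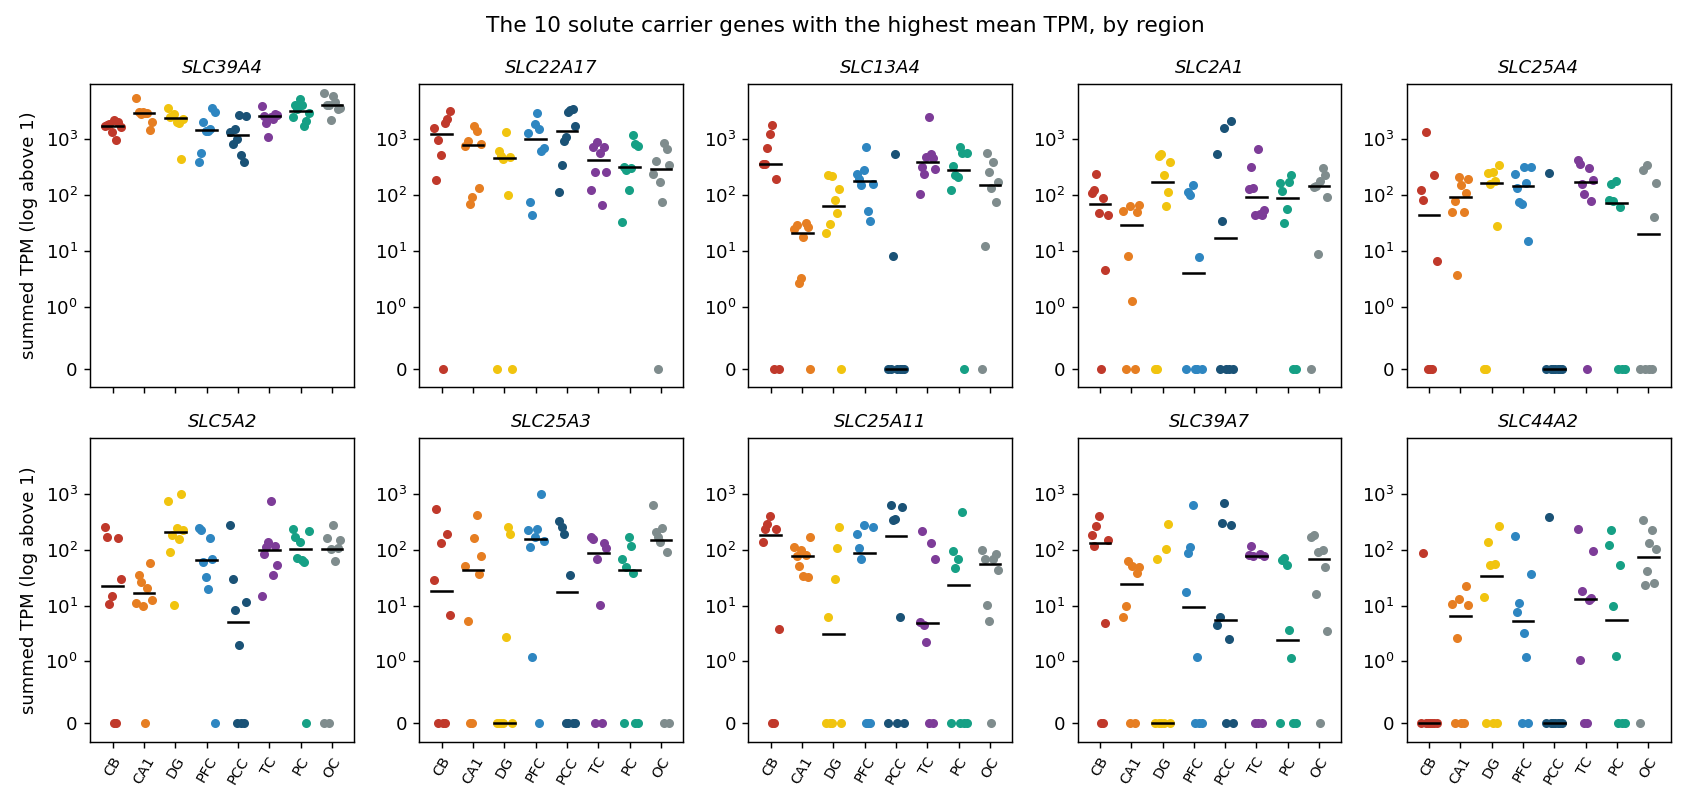
Summed TPM (vertical axis, logarithmic above 1) of the 10 carrier genes with the highest mean TPM, by area; points are libraries (8 per area) and lines are medians. SLC39A4 is between 394 and 6830 TPM in every library, and each of the other 9 genes is at 0 in some libraries.

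Where the tags lay within a gene was described next. Of the members' TPM, 24.4% lay within 500 nt of the annotated start, 63.5% lay further inside the gene and 12% lay in its last 10%. For all genes these shares were 53.7%, 33.1% and 12.1%. Without SLC39A4 the members' shares were 46.1%, 32.1% and 21.8%. By gene rather than by TPM, the main start position lay near the start in 52 of 199 members (26.1%), against 38.3% of all genes. It lay in the last 10% of the gene in 47 members (23.6%), against 19.9% of all genes. No test was made of these shares.

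The genes with most tags differed in where these lay. SLC25A3 had 97.1% and SLC25A11 had 97.6% of their TPM near the start. SLC2A1 had 95.0% in the last part of the gene, with a main position 31908 nt inside a gene of 33162 nt on chromosome 1 (45822358 to 45855519). SLC44A2 had 97.4% there. SLC5A2 had none near the start. Its main position lay 6849 nt inside a gene of 8021 nt on chromosome 20, within the span of RUSF1 on the opposite strand. SLC52A2 is annotated over 133592 nt on chromosome 8, and its main position lay within the span of VPS28 on the opposite strand. Values of genes whose tags lie far from the start are levels of tags assigned to the gene, and their reading as promoter use was not tested.

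**Figure D3:**
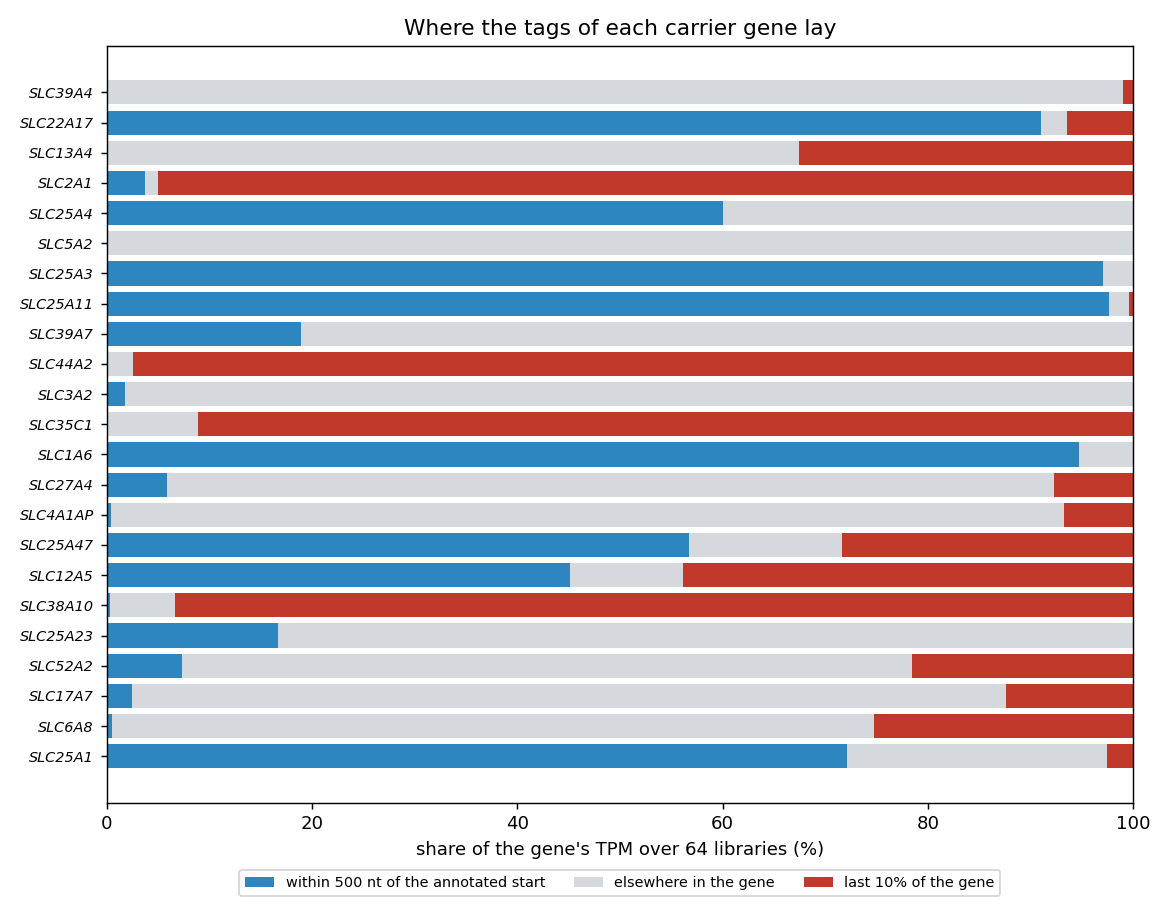
Share of each gene's TPM over 64 libraries (horizontal axis, percent) within 500 nt of the annotated start, elsewhere, and in the last 10% of the gene, for 23 of the 24 carrier genes with a mean of at least 20 TPM. SLC22A17, SLC25A3, SLC25A11 and SLC1A6 have over 90% near the start, and SLC2A1, SLC44A2, SLC35C1 and SLC38A10 have over 90% in the last part.

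Metal carriers (20 members) were dominated by SLC39A4. SLC39A7, a zinc carrier (ZIP7) of the endoplasmic reticulum, had a mean of 81.3 TPM and was listed in 43 libraries, with a median of 135 TPM in CB, 70.0 TPM in OC and 0 in DG. SLC41A3 and SLC39A13 (ZIP13, a zinc carrier) were listed in 12 and 8 libraries. SLC30A5, the highest zinc exporter of family 30, was listed in 3.

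Sugar, monocarboxylate and carboxylate carriers (24 members) were led by SLC13A4, a sodium-coupled sulfate carrier with a mean of 271 TPM. Its lowest, median and highest TPM were 0, 21.3 and 32.1 in CA1 and 0, 64.9 and 232 in DG. They were 0, 363 and 1847 in CB and 106, 392.3 and 2508 in TC. All CA1 libraries thus lay below the lowest TC library. SLC2A1 (GLUT1), the glucose carrier of the blood-brain barrier and of erythrocytes, had a mean of 168 TPM over 64 libraries and was listed in 48. SLC5A2 (SGLT2), a sodium-glucose carrier known from the kidney, had a mean of 122 TPM. SLC16A3 (MCT4), which exports lactate, was listed in 13 libraries and SLC37A1 in 2.

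Mitochondrial carriers (29 members, family 25) held 9.63% of the members' TPM. SLC25A4, the ADP/ATP exchanger of the inner membrane, had a mean of 133 TPM, SLC25A3, the phosphate carrier, 115.1 TPM, and SLC25A11, the oxoglutarate-malate carrier, 105 TPM. SLC25A4 was listed in all 8 CA1 libraries and in 1 of 8 PCC libraries. SLC25A47 was listed in 27 libraries and SLC25A1, the citrate carrier, in 22.

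Transmitter and vesicular carriers (15 members) had a median of 101 TPM per library for their sum. SLC17A7 (VGLUT1), which loads glutamate into vesicles, had a median of 40.3 TPM in CA1, 7.65 TPM in DG and 28 TPM in PC. PC was the highest neocortical area, with a mean of 41.4 TPM. The means were 16.7 TPM in PFC, 11.1 TPM in TC, 4.46 TPM in OC and 0.716 TPM in PCC. Of the TPM of SLC17A7, 2.47% lay within 500 nt of the annotated start. SLC6A8, the creatine carrier, had a mean of 20.5 TPM. SLC32A1, the vesicular GABA and glycine carrier, was listed in 14 libraries.

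Ion, bicarbonate and phosphate carriers (36 members) were individually low. SLC12A5 (KCC2), which extrudes chloride from mature neurons, was the highest true carrier of this class, with a mean of 26.6 TPM and 32 libraries listed. SLC12A9 had a mean of 19.8 TPM and SLC4A3, an anion exchanger, 14.5 TPM. SLC8A1, the highest sodium-calcium exchanger of family 8, was listed in 6 libraries and SLC26A10 in 3. Among amino acid and peptide carriers (23 members), SLC3A2, the heavy chain of several exchangers, had a mean of 46.7 TPM, of which 40.3% came from 1 library. SLC38A10 followed with 26.3 TPM, SLC38A3, a glutamine carrier, with 14.5 TPM and SLC7A8, a light chain of the exchangers, with 12.8 TPM. SLC15A2, a peptide carrier, and SLC43A2 were listed in 4 and 3 libraries. Among nucleotide-sugar and nucleoside carriers (20 members), SLC35C1, the GDP-fucose carrier of the Golgi, had 75.6% of its TPM in 1 library, and SLC35A3, the UDP-N-acetylglucosamine carrier, had 96.8%. SLC35B2 was listed in 9 libraries. The other carriers (32 members) were led by SLC22A17. SLC44A2, a choline-like carrier, averaged 46.8 TPM and SLC27A4, a fatty acid carrier, 29.7 TPM. SLC52A2, a riboflavin carrier, was listed in 32 libraries and SLC66A3 in 12.

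Differences between areas were tested with limma on log2(TPM + 1), with the animal group as a block, on 6106 genes that had at least 1 TPM in at least 8 libraries. Of the members, 74 of 199 (37.2%) passed this filter, against 46% of all genes. The call threshold was an adjusted p (Benjamini-Hochberg, over all 6106 genes) below 0.05. A fold change on this scale understates the change of low genes. In bulk tissue, fewer cells of a type and less RNA per cell cannot be told apart. A gene listed in fewer than 8 libraries outside the group where it was high passed the filter only through that group, so its call is partly fixed by the filter. This held for the member called in CB, for all 3 called in hippocampus and for 8 of the 10 that were higher in CA1 (SLC12A5 and SLC4A8 are the exceptions). Counts over the tested members are therefore given as descriptions.

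In CB against the other 7 areas, 1 of 74 members was higher, against a background of 0.884% of all genes tested, and 0 were lower, against 1.34%. At an unadjusted p under 0.05, 3 members (4.05%) were lower, against 8.16% of all genes: SLC44A2, SLC4A1AP and SLC25A47, with log2 fold changes of -2.34, -1.93 and -1.82. SLC1A6 (EAAT4), the glutamate carrier of Purkinje cells, was the member that was higher. It was listed in 4 of 8 CB libraries, at 89.4 TPM (1 yr, male), 1.13 TPM (4 yr, male), 1888 TPM (10 yr, female) and 9.66 TPM (10 yr, male). In the other areas it was listed in 5 of 56 libraries, with a highest value of 10.1 TPM. The groups overlapped, since 4 CB libraries were at 0. The log2 fold change was 2.56 (SE 0.60, adjusted p = 0.00746 by limma), with a higher CB value in 4 of 8 animal groups. Without the CB library of 10-yr-old females it was 1.39 (adjusted p = 0.123). The main start position of SLC1A6 lay at the annotated start itself on chromosome 19 and was listed in 2 libraries. The CB library of 10-yr-old females held 94.1% of the gene's TPM, so this position rests almost wholly on 1 library. Of the tested cerebellar markers, CBLN1, CBLN3, NEUROD1 and CALB1 were listed in all 8 CB libraries and were higher there. CA8, ITPR1 and PVALB were listed in 2, 1 and 3 CB libraries and were not called. The summed marker list of cerebellar granule and Purkinje cells was between 2530 and 4189 TPM in CB and between 0 and 771 TPM elsewhere, with 4 of 7 tested markers higher and 0 lower. CBLN1 and CBLN3 passed the filter only through CB, so their calls are partly fixed by it. The markers GABRA6, FAT2, ZIC1 and ZIC4 were each listed in 3 CB libraries and ZIC2 in 1, and these were not tested.

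In the hippocampal areas against the neocortical areas, 3 of 74 members were higher, against 7.98% of all genes tested, and 0 were lower, against 0.213%. At an unadjusted p under 0.05, 14 members (18.9%) were higher, against 21.5% of all genes, and 1 (1.35%) was lower, against 1.42%. The lower member was SLC13A4 (log2 fold change -1.75). SLC24A3, a potassium-dependent sodium-calcium exchanger, was listed in 9 of 16 hippocampal and 5 of 40 neocortical libraries. Its log2 fold change was 1.71 (SE 0.52, adjusted p = 0.0313 by limma). SLC4A10, a sodium-coupled bicarbonate carrier of neurons, was listed in 8 of 16 hippocampal and 5 of 40 neocortical libraries, with a log2 fold change of 1.58 (SE 0.45, adjusted p = 0.0208). SLC6A9 (GlyT1), the glycine carrier, was listed in 6 of 16 hippocampal and 2 of 40 neocortical libraries, with a log2 fold change of 1.35 (SE 0.42, adjusted p = 0.0364). These 8 libraries are the minimum of the filter. The calls were lost in 9 of 18 alternative settings for SLC24A3, in 5 of 19 for SLC4A10 and in 8 of 17 for SLC6A9. A higher hippocampal value was found in 7 of 8 animal groups for SLC24A3 and SLC4A10 and in 4 of 8 for SLC6A9. In all 3 genes the ranges of the groups overlapped, and most hippocampal libraries that listed them were from CA1: 7 of 9 for SLC24A3, 7 of 8 for SLC4A10 and 5 of 6 for SLC6A9. With quantile normalization, 0 members were higher and 1 was lower, SLC13A4. Without the animal group of 20-yr-old females, 0 members were called. With the number of listed genes as a further term, which was chosen after seeing the data, 0 were called. The summed oligodendrocyte markers had a median of 4517 TPM in hippocampus, against 1575 TPM in neocortex, and 5 of 5 tested markers were higher. The summed astrocyte markers had medians of 989.7 TPM in hippocampus and 332.8 TPM in neocortex, with 2 of 6 higher (GFAP and ALDH1L1). The summed excitatory neuron markers had medians of 557.3 TPM in hippocampus and 417 TPM in neocortex, with 3 of 7 higher (FEZF2, NEUROD6 and CAMK2A). Of GABAergic neuron markers 1 of 7 was higher, of choroid plexus and meninges markers 1 of 2, and of microglial markers 0 of 4. The called markers MAL, MOG, FEZF2, NPY and FOLR1 passed the filter only through hippocampus, so their calls are partly fixed by it. The part of the marked cell types in the result was not tested.

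CA1 and DG differed in the most members. In CA1 against DG, 10 of 74 members were higher, against 18.5% of all genes tested, and 1 was lower, against 0.852%. The members' share of higher calls (13.5%) was below that background. The median log2 fold change was 1.06 over the members and 1.37 over all genes. In the ion, bicarbonate and phosphate class 5 of 13 tested members were higher (SLC4A10, SLC4A8, SLC12A5, SLC24A3 and SLC9A9), and in the sugar, monocarboxylate and carboxylate class 2 of 11. It was 1 of 7 metal carriers, 1 of 6 nucleotide-sugar and nucleoside carriers and 1 of 10 other carriers. It was 0 of 13 mitochondrial, 0 of 8 transmitter and vesicular and 0 of 6 amino acid and peptide carriers. The classes were not tested against each other or against all genes.

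SLC4A10 was listed in 7 of 8 CA1 libraries, with a median of 29.7 and a highest value of 75.6 TPM. In DG it was listed in 1 library, at 2.06 TPM. The log2 fold change was 4.05 (SE 0.77, adjusted p = 0.000205 by limma). SLC4A8, a sodium-driven chloride-bicarbonate exchanger, had a median of 32.9 TPM and 7 of 8 libraries listed in CA1, and 1 listed library at 8.04 TPM in DG. Its log2 fold change was 3.75 (SE 0.90, adjusted p = 0.00276). SLC12A5 was listed in all 8 CA1 libraries, between 1.94 and 94.4 TPM, and in 1 DG library at 93.7 TPM, with a log2 fold change of 3.68 (SE 1.18, adjusted p = 0.0234). For these 3 genes, 7 of 8 animal groups had the higher value in CA1. SLC24A3 was listed in 7 CA1 and 2 DG libraries, with a log2 fold change of 2.73 (SE 0.88, adjusted p = 0.0248). SLC66A1, an exporter of cationic amino acids from lysosomes, was listed in 6 CA1 libraries and 1 DG library, with a log2 fold change of 2.19 (SE 0.81, adjusted p = 0.0486). This call was lost in 13 of 19 alternative settings, with an adjusted p of up to 0.774. That of SLC24A3 was lost in 7 of 18, and that of SLC12A5 in 5 of 19, with a limma adjusted p of up to 0.691. The call of SLC4A8 was lost in 2 of 18 and that of SLC4A10 in 0 of 19.

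The other 5 genes that were higher in CA1 were each listed in 6 of 8 CA1 libraries and at 0 in every DG library, so no fold is given. SLC35B1, which brings ATP into the endoplasmic reticulum, had a CA1 median of 19.5 TPM (adjusted p = 0.00445). SLC39A10, a zinc importer, had 8.77 TPM (adjusted p = 0.00811) and SLC9A9, a sodium-proton exchanger of endosomes, 6.90 TPM (adjusted p = 0.00928). SLC5A11, a sodium-inositol carrier, had 16.4 TPM (adjusted p = 0.0113) and SLC2A6, a hexose carrier of lysosomes, 13.8 TPM (adjusted p = 0.0207). All 5 passed the filter only through CA1, so their calls are partly fixed by it. The call of SLC2A6 was lost in 5 of 19 alternative settings, with a limma adjusted p of up to 0.431. Those of SLC35B1, SLC39A10, SLC9A9 and SLC5A11 were each lost in 2 settings, with an adjusted p of up to 0.182, 0.676, 0.917 and 0.303.

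SLC5A2 was lower in CA1. Its values in CA1 were 0, 16.5 and 57.2 TPM (lowest, median, highest), against 10.3, 205 and 1005 TPM in DG, with a log2 fold change of -3.63 (SE 1.27, adjusted p = 0.0376 by limma). All 8 animal groups had the lower value in CA1, and the ranges overlapped. The call was lost in 7 of 18 alternative settings, with an adjusted p of up to 0.0995. As given above, its main start position lay within the span of RUSF1, and no tag lay near the annotated start. That position held 68.7% of its TPM over all libraries.

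The CA1 libraries listed between 3805 and 8143 genes and the DG libraries between 1238 and 3898. Area and number of listed genes were thus nearly confounded, and a fit that holds both cannot tell them apart. The part of this difference in the calls was not tested. With quantile normalization 1 member was higher and 1 lower, and with the number of listed genes as a further term 1 was higher and 1 lower. The members called in both cases were SLC4A10 and SLC5A2. The log2 fold change of SLC4A10 was then 1.92 (adjusted p = 0.043) and 3.86 (adjusted p = 0.0102), and that of SLC5A2 was -5.41 (adjusted p = 0.00519) and -6.42 (adjusted p = 0.00492). Quantile normalization moved the median log2 fold change of all genes to 0.12. The summed oligodendrocyte markers were between 4987 and 8193 TPM in CA1 and between 736 and 4047 TPM in DG, with 3 of 5 tested markers higher. Excitatory neuron markers had a summed median of 666 TPM in CA1 and 266 TPM in DG, with 2 of 7 higher. Dentate granule cell markers had a summed median of 68.8 TPM in CA1 and 440.5 TPM in DG, and of 2 tested, 0 were called. Of these, CALB1 had a log2 fold change of -2.57 (adjusted p = 0.0944 by limma). Of microglial markers 1 of 4 and of choroid plexus and meninges markers 1 of 2 were higher, and of astrocyte markers 0 of 6. The called microglial marker CSF1R, the choroid plexus marker FOLR1 and the oligodendrocyte marker MAL passed the filter only through CA1. Their calls are therefore partly fixed by the filter. The part of the marked cell types in the result was not tested.

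**Figure D4:**
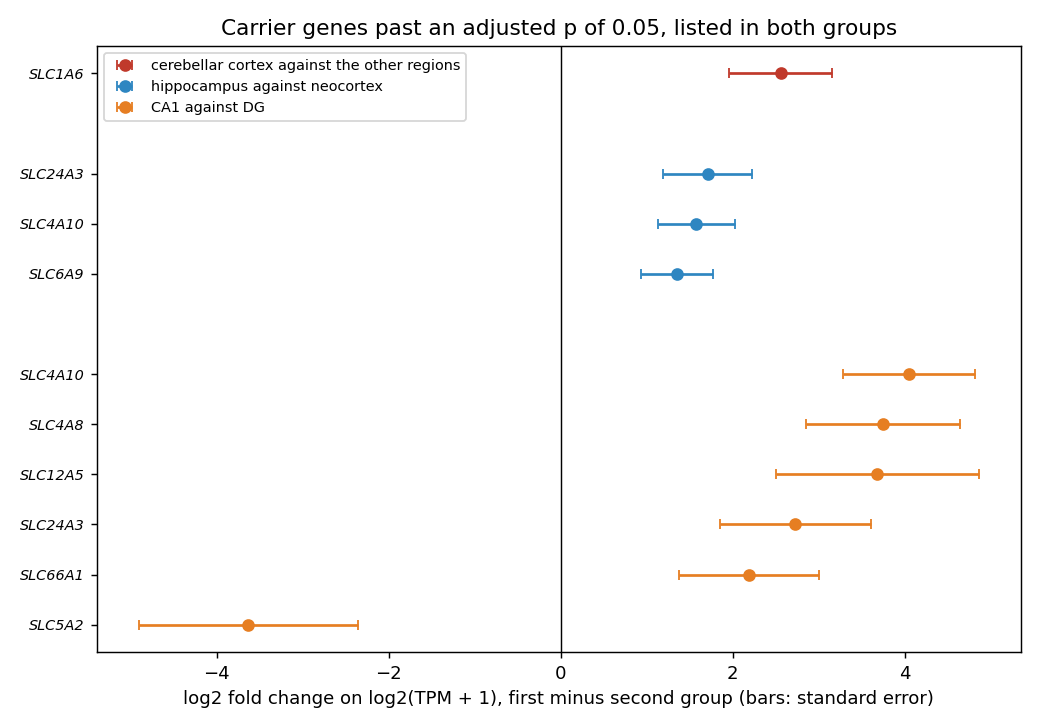
Log2 fold change on log2(TPM + 1) with its standard error for the carrier genes past an adjusted p of 0.05 that were listed in both groups, first-named group minus second. SLC1A6 is at 2.56 for the cerebellar cortex and SLC4A10 at 4.05 for CA1 against DG, and SLC5A2, at -3.63, is the gene below 0.

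**Figure D5:**
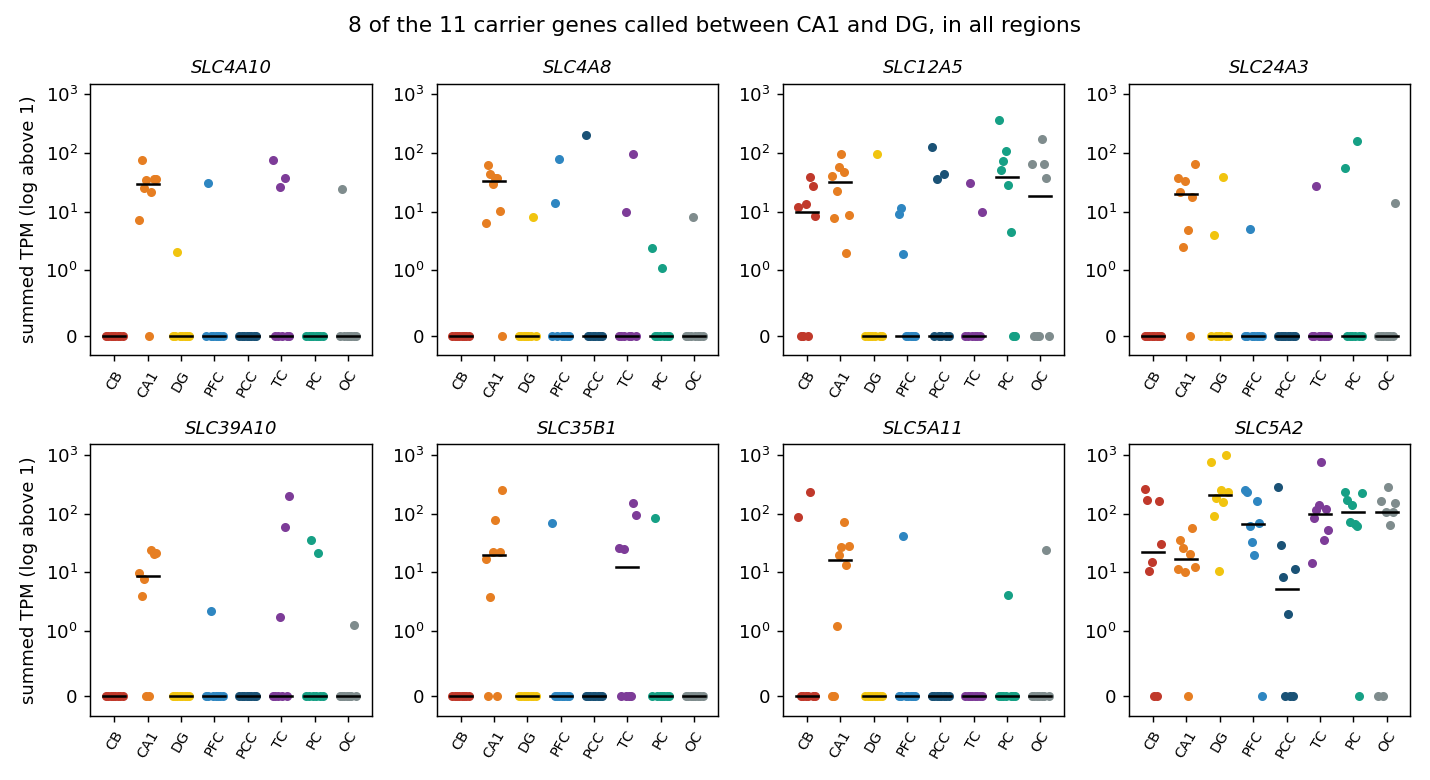
Summed TPM (vertical axis, logarithmic above 1) of 8 of the 11 genes called between CA1 and DG, by area; points are libraries and lines are medians. SLC4A10 is listed in 7 CA1 libraries and 1 DG library, and SLC5A2 is listed in all 8 DG libraries.

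For age, animal-group means over the areas were compared, 10-20 yr against 1-4 yr. Of 74 members, 0 were called by limma, against 0% of 6106 genes. At an unadjusted p under 0.05 there were 7 members (9.46%), against 8.99% of all genes, and all 7 were lower at 10-20 yr. The median log2 fold change was -0.28 over the members and -0.30 over all genes. The smallest p was that of SLC39A7, with medians of 1.17 TPM at 10-20 yr and 69.7 TPM at 1-4 yr (log2 fold change -2.49, SE 0.63, adjusted p = 0.33 by limma). SLC2A1 had medians of 48.5 TPM at 10-20 yr and 104 TPM at 1-4 yr (adjusted p = 0.55). SLC22A17 had medians of 338, 364, 1280 and 725 TPM at 1, 4, 10 and 20 yr, and each age held libraries at 0. SLC39A4 had medians of 2588, 2128, 2269 and 2464 TPM at these ages. For females against males 0 members were called by limma, against 0% of all genes, and 4 members (5.41%) against 5.26% of all genes passed at an unadjusted p under 0.05: SLC25A4, SLC3A2, SLC6A8 and SLC7A10, all lower in females. Most genes leaned that way, since the log2 fold change was above 0 in 35.1% of the members and 35.3% of all genes. Its median was -0.12 over the members and -0.19 over all genes. SLC25A4 had medians of 45.5 TPM in females and 146 TPM in males (adjusted p = 0.924 by limma).

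Genes that carriers depend on were given for comparison. Of the sodium-potassium pump, which makes the sodium gradient, 5 of 9 listed genes were in the table and 5 were tested. ATP1B1, a beta subunit of that pump, was among those higher in CA1 than in DG (log2 fold change 4.99, adjusted p = 0.0011). Of the vesicular proton pump 6 genes were tested and 1 was higher in CA1 than in DG, ATP6V1D (5.37, adjusted p = 0.00579), against the 18.5% of all genes given above. Neither tested chaperone of monocarboxylate carriers, BSG nor NPTN, was called. Among the SLCO carriers, 1 of 2 tested was higher in hippocampus than in neocortex, SLCO3A1 (2.32, adjusted p = 0.00257 by limma), against 7.98% of all genes. SLCO3A1 was listed in 18 libraries, of which 7 were from CA1 and 4 from DG. It thus passed the filter only through hippocampus, so its call is partly fixed by the filter.

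Among the 24 members with a mean of at least 20 TPM, the pair most alike over the 64 libraries was SLC25A11 and SLC39A7 (Pearson r = 0.68, and 0.69 after removal of area means). The next was SLC25A4 and SLC44A2 at 0.44. These are descriptions over libraries that differ in the number of genes listed.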

How the data were processed

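The deposited table gives, for each start position of a gene, TPM in 64 CAGE-seq libraries. These values are what the authors call TPM, tags (RPM) scaled to a fixed library total, without correction for length. Per the methods of the study, the authors treated poly(A) RNA with a 5′-phosphate-dependent exonuclease, sequenced paired ends, aligned reads with TopHat2 to MMUL 1.0 and kept unique reads. Positions were then assigned to genes. TopHat2 is also named in the submitters' processing notes. Library totals of tags are not given in the table, so depth is unknown and was judged from the number of genes listed.

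Positions were summed per gene. Symbols came from the Ensembl name table, which gave one for 10069 of 13269 genes. Members and lists were chosen with earlier results of these data known. limma 3.58.1 (R 4.3.3) was run on log2(TPM + 1) with area and animal group as terms. For age and sex, it was run on the means of animal groups. A gene was tested where 8 or more libraries gave it 1 TPM or more, and scripts were tested on simulated data. Pairing by animal group comes from the study, in which all areas were taken from each specimen. Deviations from area means correlated at a mean of 0.011 within and -0.002 between animal groups. Named were, per comparison, up to 10 called members in each direction, the 4 highest members by mean TPM in each class, the highest of each family with 3 or more members and the 10 highest overall. Values of a few genes are not reported here. The 8 libraries of an area differ in age and sex, and p-values measure the spread between these libraries. Python 3.11.15, pandas 2.3.3 and Matplotlib 3.10.9 were used. Alternatives were the pseudocount, the filter, quantile normalization, start positions used, the block and leaving out animal groups.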

Additional observations from a re-analysis of the deposited data

Results flagged for a closer look

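In groups of 8 libraries, a gap test on the highest or lowest library at the 95% level marked 12 of 49 groups tried. In 10 of these groups at least 7 libraries were at 0, so that any listed value is marked by construction, and 5 of the marks fall there. In the other 39 groups there were 7 marks. The nominal rate of 1 in 20 assumes normal values, and some of these groups hold several values at 0. The count can therefore not be judged against that rate. The members' share of listed TPM was high in 3 libraries. It was 1.58% in the CA1 library of 1-yr-old females, 1.50% in the PCC library of 20-yr-old females and 1.92% in the TC library of 10-yr-old females. The last 2 libraries listed 707 and 764 genes. In the PCC library of 10-yr-old males, 85.7% of the members' TPM lay near annotated starts, and SLC22A17 held 3420 TPM there. The PFC library of 1-yr-old males listed 64 members, the most of that area.

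In DG, single libraries stood above the others on log2(TPM + 1). These were SLC24A3 at 5.30 and SLC12A5 at 6.57 (both 10 yr, male), SLC6A9 at 6.97 and SLC4A8 at 3.18 (both 20 yr, female), SLC4A10 at 1.61 (4 yr, female) and SLC66A1 at 2.21 (1 yr, male). In CA1, SLC5A2 was at 0.00 in the library of 10-yr-old females, below the other 7. For SLC12A5, SLC6A9, SLC4A8, SLC4A10 and SLC66A1 the other 7 DG libraries were at 0. Of 30 comparisons of a called effect between sexes or age groups, 0 passed by an exact permutation test (lowest adjusted p = 0.855). With 4 animal groups against 4 the smallest exact p is 0.0286, which for 1 comparison alone becomes an adjusted p of 0.857, so this count says nothing about whether the effects differ.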

How the results depend on the processing

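Counts of called members depended on the setting, and the causes were not tested. In CB against the other areas, 1 member was called, 0 with start positions within 500 nt of the start (27 members tested), 0 with positions of at least 2 TPM and 0 without the CB library of 10-yr-old females. SLC1A6, the member called, did not pass the filter with positions within 500 nt or of at least 2 TPM. It was not tested in those settings, so its call could not recur there. Leaving out an animal group gave between 0 and 1; it was 0 without 1-yr-old males and 0 without 10-yr-old females. In hippocampus against neocortex, 3 were called. There were 5 with a pseudocount of 0.25 TPM, 5 with no filter, 1 with quantile normalization, 1 with the highest start position of a gene, 1 without the CA1 library of 20-yr-old females and 0 with the number of listed genes as a term. Leaving out animal groups gave between 0 and 4. In CA1 against DG, 11 were called. There were 22 with no filter, 2 with quantile normalization, 7 with positions within 500 nt and 2 with the number of listed genes as a term. Leaving out animal groups gave between 7 and 15. Without the replicate block, the pairing by animal group, the calls were 1, 4 and 12 in the 3 comparisons, with 0 for age and sex in every setting. The CB and CA1 libraries left out alone and the listed-gene term were chosen after seeing the data. The members' share of listed TPM was 0.428% with positions within 500 nt, against 0.970% with all. No called gene changed sign. Most members were at 0 in most libraries, and the depth of the libraries is unknown.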
